A study of Homo sapiens with 4 samples.

Results

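JQ1 was compared with vehicle in control tumors of SUM149, a triple-negative inflammatory breast cancer cell line grown as xenografts, in single cells of 2 pools. The members are the 6066 of 13719 cells of the series that the deposited cell tables assign to the control short hairpin RNA (shCON). Of these, 2272 came from tumors given vehicle (shCON_veh) and 3794 from tumors given JQ1 (shCON_JQ1). Pool 3 held 1083 vehicle and 1858 JQ1 cells, and pool 4 held 1189 and 1936. All groups used here carried the shCON lentivirus, and the same line with CD9 knockdown (shCD9, pools 1 and 2, 7653 cells) is shown only beside them. Cells were injected into the mammary fat pad of NSG mice that were 6 weeks old, and after 14 days the mice were randomized to vehicle or to JQ1 at 25 mg/kg daily for 30 days (the labels and the methods give different numbers of mice in a group). NSG mice lack mature T, B and NK cells, so the tumors grew without adaptive immunity. The sample label gives JQ1 as the treatment of every pool, but the cell tables, which follow hashtag antibodies, place vehicle and JQ1 cells in each pool and name no tumor. Each treatment therefore counted as 1 sample, no test across animals was possible, and all intervals cover counting error only.

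JQ1 occupies the acetyl-lysine pockets of the BET bromodomain proteins and displaces them from chromatin, which lowers transcription of genes that depend on BET proteins at enhancers and promoters. NF-kB and interferon target genes are among those that BET proteins are known to serve, and MYC is a much used readout of BET inhibition in other cancers. SUM149 cells carry basal keratins and secrete cytokines and chemokines in culture.

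The summed UMIs (unique molecular identifiers, 1 for each captured RNA molecule) were between 24720412 and 40314303 for each treatment and pool, and the median per cell was 18645.5 with vehicle and 17831.5 with JQ1. The median share of mitochondrial UMIs was 6.01% with vehicle and 5.78% with JQ1. Epithelial markers (7 of 8 in the tables) summed to between 6564 and 8046 CPM, where CPM is UMIs of a gene in each 1000000 UMIs. Endothelial markers (2 of 4) summed to between 3.33 and 4.99 CPM, erythroid markers (2 of 3) to between 0.454 and 0.620 CPM and immune markers (4 of 7, CD74 among them) to between 96.6 and 122 CPM. Fibroblast markers (6 of 7) went from 54.6 to 87.8 CPM in pool 3 and from 96.8 to 53.8 CPM in pool 4, so they did not move the same way. FABP4, a fatty acid carrier and the adipocyte marker that could be measured, was higher with JQ1, going from 3.36 to 20.1 CPM in pool 3 and from 2.25 to 7.96 CPM in pool 4, with 91.6% of its JQ1 UMIs in the 1% of cells that held most. Pools 3 and 4 differed by about as much as sampling of cells gives, with 5.22% of 2089 genes outside the 95% sampling limits in vehicle cells and 5.33% of 2119 genes in JQ1 cells. The same direction in both pools is thus little independent evidence, since both may hold cells of the same tumors. The pools shared 3 cell barcodes.

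Of the 4000 genes in the tables, 2178 had at least 200 UMIs over both treatments and pools. A gene is called higher or lower with JQ1 here when its ratio of JQ1 to vehicle was past 1.5-fold in the same direction in both pools, which is a rule of size and not a test. By this rule 130 genes were higher (5.97% of those measured) and 84 were lower (3.86%), while the median log2 ratio over all measured genes was -0.041. The ratios of 1739 genes had the same sign in both pools. When the 1% of cells with most UMIs of a gene were left out of each treatment and pool, the split was 116 higher and 135 lower, and when log2(deposited value + 0.1) was averaged over cells it was 2 higher and 20 lower. The plot of ratios by pool shows these genes against the rest.

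**Figure D1:**
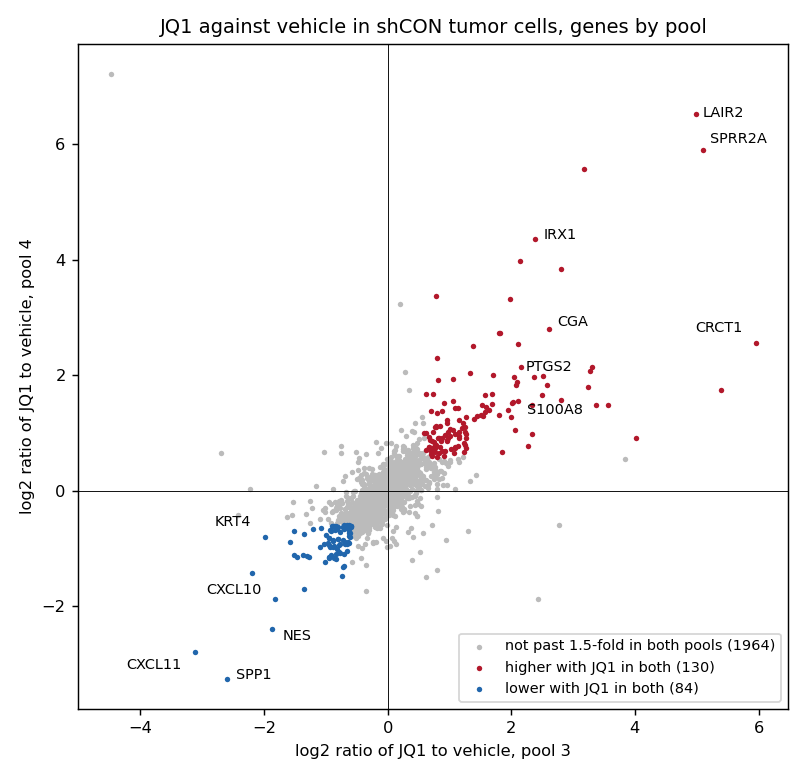
Each point is a gene with at least 200 UMIs; the axes give its log2 ratio of JQ1 to vehicle in pool 3 and in pool 4, and colored points are past 1.5-fold in both pools. SPRR2A lies at 5.10 in pool 3 and 5.90 in pool 4 and CXCL11 at -3.11 in pool 3 and -2.80 in pool 4, the 130 higher genes reach farther from 0 than the 84 lower ones, and a gene without a ratio in a pool is not drawn.

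The lower genes were spread over more cells than the higher ones. In the 84 lower genes a median of 26% of vehicle UMIs lay in the 23 vehicle cells (1%) that held most of the gene, and a median of 12.8% of vehicle cells had a UMI. In the 130 higher genes a median of 47.2% of JQ1 UMIs lay in the 38 JQ1 cells (1%) that held most, and a median of 5.14% of JQ1 cells had a UMI. For 62 of the 130 higher genes, but 11 of the 84 lower genes, these few cells held over 50% of the UMIs. At least 10 UMIs of any of the 15 genes with the highest ratios were found in 8 of 2272 vehicle cells and 89 of 3794 JQ1 cells. For the 15 genes with the lowest ratios the numbers were 182 vehicle cells and 76 JQ1 cells. The minimum of 10 UMIs was chosen after the values were seen.

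Among the lower genes that many cells carried, NES (chr1:156668763-156677407, minus strand, in GRCh38), which encodes the intermediate filament nestin of progenitor cells, went from 15.4 to 4.18 CPM in pool 3 and from 17.8 to 3.37 CPM in pool 4. Its log2 ratio was -2.14 (95% counting interval -2.33 to -1.94), and a UMI was found in 19.9% of vehicle cells and 5.67% of JQ1 cells. After every cell was thinned to 4000 UMIs these shares were 5.898% and 1.397%. At such low counts the share of cells with a UMI largely follows the level. Whether fewer cells carried the transcript, or each cell held less of it, was therefore not tested, here or for the next genes. SMARCA1 (chrX:129446501-129523500, minus strand), an ATPase of ISWI chromatin remodeling complexes, went from 18.2 to 6.58 CPM in pool 3 and from 17.7 to 7.99 CPM in pool 4, and cells with a UMI were 24.6% of vehicle cells and 10.9% of JQ1 cells (6.21% and 3.03% after thinning). CALB2 (chr16:71358713-71390436, plus strand), the calcium-binding protein calretinin, went from 33.3 to 13.03 CPM in pool 3 and from 36.2 to 11.2 CPM in pool 4, with a log2 ratio of -1.52 (95% counting interval -1.64 to -1.41). It was found in 18.2% of vehicle cells and 9.41% of JQ1 cells (6.998% and 2.79% after thinning). Both JQ1 values of each of these 3 genes were under both vehicle values, which follows largely from their choice and was the case for 40.1% of all measured genes. No cell type that should lack these transcripts was among the cells, so the share of UMIs from free RNA was not tested.

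SPP1 (chr4:87975667-87983532, plus strand) encodes osteopontin, a secreted phosphoprotein that binds integrins and CD44. It went from 42.03 to 6.96 CPM in pool 3 and from 40.7 to 4.27 CPM in pool 4, with a log2 ratio of -2.89 (95% counting interval -3.04 to -2.74). A UMI was found in 10.8% of vehicle cells and 3.48% of JQ1 cells, and the highest cell held 142 UMIs with vehicle and 22 with JQ1. PLA2G2A, a secreted phospholipase, went from 23.8 to 9.68 CPM in pool 3 and from 37.6 to 17.1 CPM in pool 4. SLC7A8, a subunit of an amino acid exchanger, went from 26.5 to 8.87 CPM in pool 3 and from 24.8 to 13.3 CPM in pool 4, and FGFR3, a receptor of fibroblast growth factors, from 3.24 to 1.34 CPM in pool 3 and from 3.59 to 1.61 CPM in pool 4. These 3 genes had log2 ratios between -1.21 and -1.20. KRT4, a keratin of mucosal epithelium, had a log2 ratio of -1.37 (95% counting interval -1.56 to -1.18), and C6orf15 of -1.83 (95% counting interval -2.16 to -1.51). The remaining genes among the 15 lowest, besides the chemokines CXCL10 and CXCL11, were ZNF528-AS1 (-1.32), AC019117.2 (-1.21), IGFL3 (-1.19) and AC133644.2 (-1.13). ZNF528-AS1 is named as an antisense gene, and whether the counting used strand is not given in the sources used here.

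**Figure D2:**
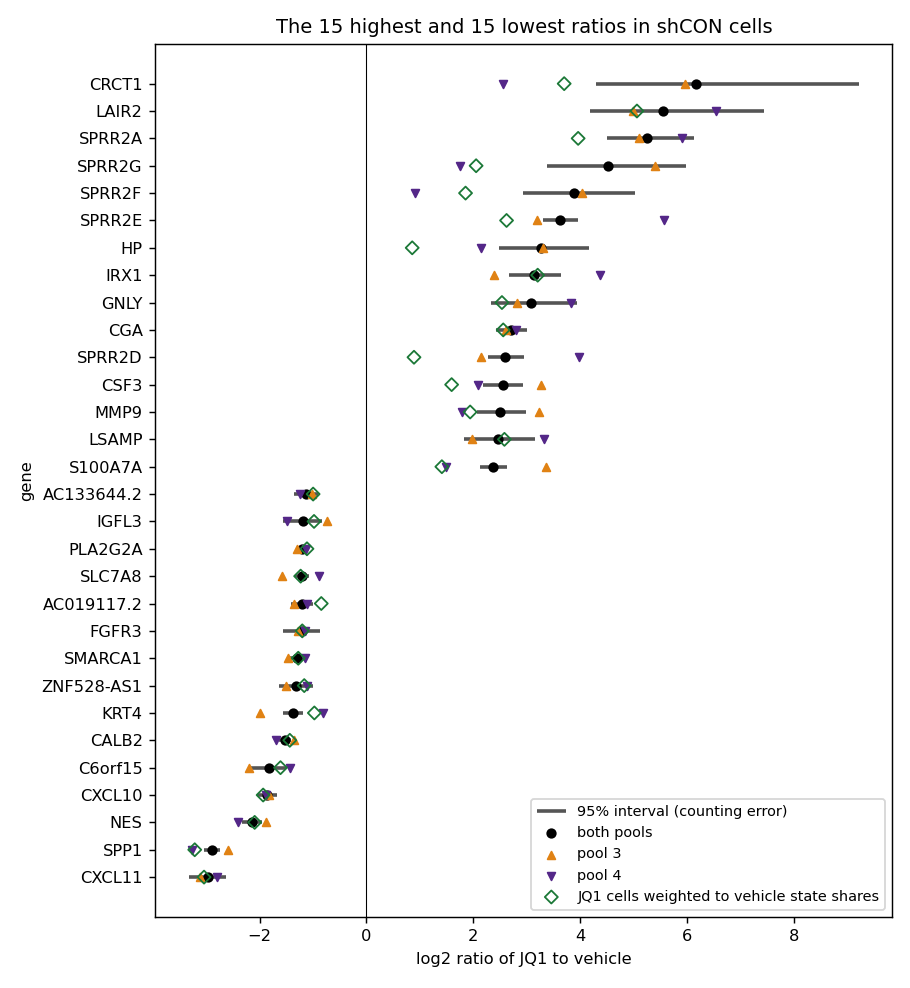
Log2 ratios of JQ1 to vehicle (horizontal axis) over both pools, with 95% counting intervals, and in each pool for the 15 genes with the highest and the 15 with the lowest ratios among those past 1.5-fold in both pools, with diamonds for JQ1 cells weighted to the state shares of vehicle cells. CRCT1 reaches 6.16 with an interval from 4.29 to 9.21, and CXCL11 reaches -2.96.

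The highest ratios came mainly from a few cells with very large counts. CRCT1 (chr1:152514482-152516008, plus strand), a gene of the epidermal differentiation cluster, had 2 vehicle and 228 JQ1 UMIs, and 190 of the latter lay in 1 cell. Its log2 ratio was 6.16 (95% counting interval 4.29 to 9.21), and with no vehicle UMI in pool 4 the ratio there is a bound, set with the count at 3. SPRR2A, SPRR2D, SPRR2E, SPRR2F and SPRR2G encode small proline-rich proteins that are crosslinked into the cornified envelope of keratinocytes. They went from 14 to 852, 82 to 792, 84 to 1648, 9 to 212 and 6 to 219 UMIs, in no more than 1.79% of JQ1 cells. SPRR2F had 1 vehicle UMI and 3 JQ1 UMIs in pool 4, so its call there rests on very few molecules. The SPRR2 genes are near-identical in sequence, and reads could have been split among them, so their single values are uncertain. A total of 15 JQ1 cells held at least 10 UMIs of an SPRR2 gene or CRCT1, against 3 vehicle cells, and 10 of the 15 had the cluster 9 label. HP, the plasma protein haptoglobin, had 14 vehicle and 214 JQ1 UMIs, of which 201 lay in 1 JQ1 cell. Without cluster 9 cells the log2 ratio of HP was -1.09 and the log2 ratio of SPRR2G -0.38. LAIR2, a soluble decoy receptor of collagen, had 4 vehicle and 299 JQ1 UMIs, with at most 90 in a cell and 62.2% of the JQ1 UMIs in cluster 9 cells.

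IRX1 and LSAMP differed from these in lying in more cells. IRX1 (chr5:3595832-3601403, plus strand), an Iroquois homeobox transcription factor, went from 1.21 to 6.3 CPM in pool 3 and from 0.355 to 7.32 CPM in pool 4, and the log2 ratio was 3.13 (95% counting interval 2.66 to 3.64). A UMI was found in 0.8803% of vehicle cells and 6.33% of JQ1 cells (0.4401% and 2.58% after thinning), with at most 11 in a JQ1 cell. LSAMP (chr3:115802374-117139389, minus strand), a membrane-anchored adhesion protein of neurons, went from 0.688 to 2.696 CPM in pool 3 and from 0.237 to 2.36 CPM in pool 4, in 0.748% of vehicle cells and 3.45% of JQ1 cells (0.396% and 1.05% after thinning). Both JQ1 values of each gene lay above both vehicle values, which follows largely from their choice and was the case for 31.7% of all measured genes. CGA, the alpha subunit of the glycoprotein hormones, went from 2.31 to 14.01 CPM in pool 3 and from 2.13 to 14.8 CPM in pool 4, but 92.5% of its JQ1 UMIs lay in 1% of the cells. GNLY, named for the lymphocyte protein granulysin, had 15 vehicle and 203 JQ1 UMIs. CSF3, which drives granulocyte production, went from 0.809 to 7.81 CPM in pool 3 and from 1.85 to 7.84 CPM in pool 4, and MMP9, a gelatinase, from 0.688 to 6.48 CPM in pool 3 and from 1.14 to 3.97 CPM in pool 4.

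**Figure D3:**
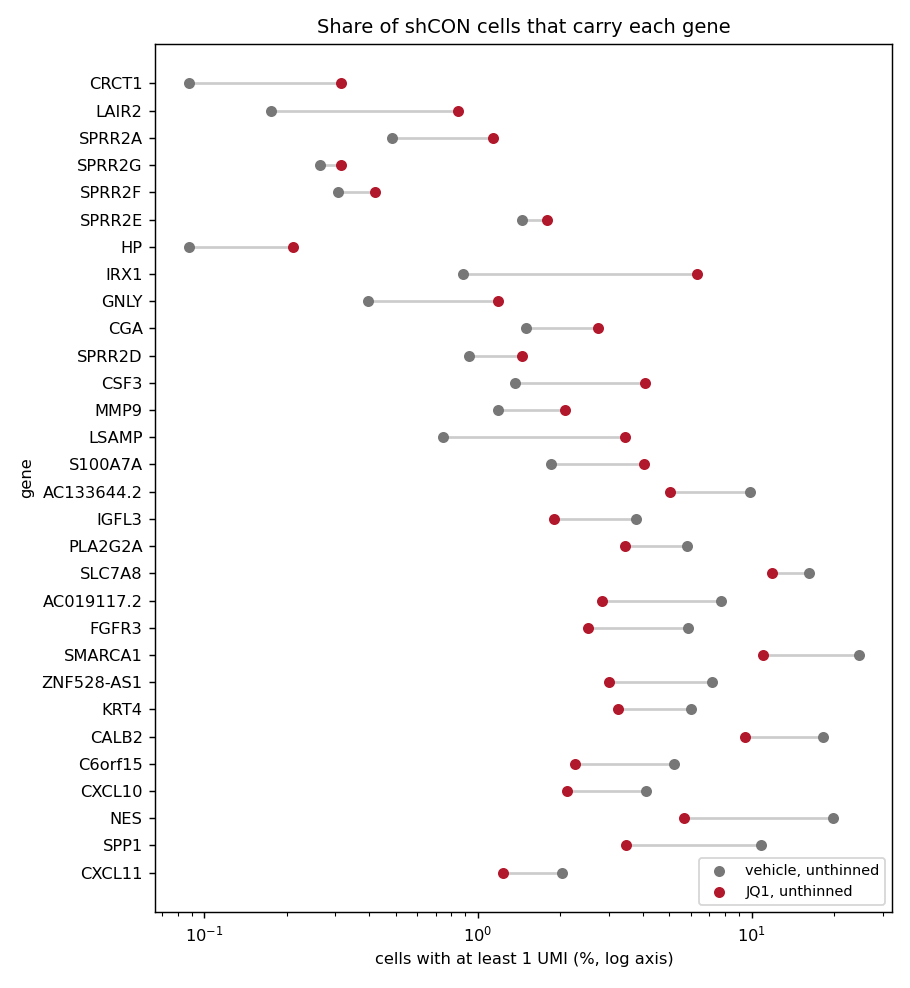
Share of cells with at least 1 UMI of a gene (percent, log axis), not thinned, in vehicle and JQ1 cells for the 15 genes with the highest and the 15 with the lowest ratios. IRX1 goes from 0.8803% to 6.33% of cells, NES from 19.9% to 5.67% and SMARCA1 from 24.6% to 10.9%, while CRCT1, SPRR2G and HP stay under 1% of cells.

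Alarmins were the gene list with the largest median among those with at least 10 measured members. Of 10 measured alarmins and S100 genes 5 were higher and 0 lower, against 5.97% of all genes, and the median log2 ratio was 0.81. With JQ1 cells weighted to the state shares of vehicle cells this median was 0.35, and the log2 ratio of the list's summed UMIs was 0.45. S100A8 (chr1:153390032-153391073, minus strand) and S100A9 encode the subunits of calprotectin, which sequesters metal ions and activates myeloid cells. S100A8 went from 513 to 2073 CPM in pool 3 and from 659 to 1885 CPM in pool 4, with a log2 ratio of 1.75 (95% counting interval 1.73 to 1.77). S100A9 went from 1469.8 to 4386 CPM in pool 3 and from 1544 to 3959 CPM in pool 4, S100A7, or psoriasin, from 257 to 1023 CPM in pool 3 and from 374 to 911 CPM in pool 4, and S100A12 from 1.46 to 6.15 CPM in pool 3 and from 1.85 to 6.62 CPM in pool 4. S100A7 and its near copy S100A7A, which had a log2 ratio of 2.37, may share reads. S100A8 was found in 59.8% of vehicle cells and 60.9% of JQ1 cells, and the median cell held 43.8 CPM with vehicle and 50.7 CPM with JQ1. The 90th percentile of cells was at 685 CPM and 2634 CPM, so the difference lay in the cells with high levels. The share of S100A8 UMIs in cluster 9 cells was 27.8% with vehicle and 48.1% with JQ1. With JQ1 cells weighted to the state shares of vehicle cells, the log2 ratio of S100A8 was 0.98 and that of S100A9 0.81. S100A2, S100A6, S100A10 and S100P, which most cells carried, had log2 ratios of 0.032, 0.099, -0.033 and 0.0094.

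NF-kB targets and inflammatory cytokines had 7 higher and 0 lower of 17 measured, against 5.97% higher and 3.86% lower of all genes. Their median log2 ratio was 0.51. PTGS2 (chr1:186671791-186680922, minus strand), the inducible cyclooxygenase, went from 12.4 to 52.9 CPM in pool 3 and from 12.7 to 47.01 CPM in pool 4, and it was found in 13.2% of vehicle cells and 20.03% of JQ1 cells. IL6 went from 1.17 to 4.76 CPM in pool 3 and from 0.868 to 2.53 CPM in pool 4, and IL1B, the processed cytokine of inflammasomes, from 15.7 to 34.7 CPM in pool 3 and from 14.5 to 39.3 CPM in pool 4. IL1A had a log2 ratio of 1.003, SOD2, the mitochondrial superoxide dismutase, of 0.87 and TNFAIP6, a hyaluronan-binding secreted protein, of 0.78. The feedback inhibitors NFKBIA and TNFAIP3 were not past the fold, at 0.19 and 0.31, and TNF was at 0.43. With JQ1, 53.8% of IL1B UMIs and 54.6% of IL1A UMIs lay in cluster 9 cells, a label that was assigned from the expression of the same cells. At the vehicle state shares the median of the list was 0.15, IL1B was at 0.32 and IL1A at -0.039, while PTGS2 remained at 1.51 and IL6 at 1.02.

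The chemokines were divided, with 4 higher and 3 lower of 12 measured, against 5.97% and 3.86% of all genes. CXCL11 (chr4:76033682-76041415, minus strand) and CXCL10 (chr4:76021118-76023497, minus strand) are ligands of the receptor CXCR3, are induced by interferon and recruit activated T and NK cells, and both were lower with JQ1. CXCL11 went from 8.94 to 1.03 CPM in pool 3 and from 7.26 to 1.04 CPM in pool 4, with a log2 ratio of -2.96 (95% counting interval -3.32 to -2.62), and CXCL10 from 18.7 to 5.27 CPM in pool 3 and from 17.6 to 4.79 CPM in pool 4, with a ratio of -1.85 (95% counting interval -2.03 to -1.68). Few cells carried them, as CXCL10 was found in 4.09% of vehicle cells and 2.11% of JQ1 cells, and 16 vehicle cells and 9 JQ1 cells held at least 10 UMIs of either. All 16 of the vehicle cells were unassigned by state. CCL28, an epithelial chemokine of mucosal surfaces, was also lower, from 8.25 to 3.23 CPM in pool 3 and from 6.27 to 3.72 CPM in pool 4. On the other side CXCL8 (chr4:73740519-73743716, plus strand), a ligand of CXCR1 and CXCR2 that recruits neutrophils, went from 57.3 to 108 CPM in pool 3 and from 44.97 to 129 CPM in pool 4, with a log2 ratio of 1.22 (95% counting interval 1.16 to 1.28). CXCL3, another ligand of CXCR2, went from 114 to 171 CPM in pool 3 and from 87.7 to 176 CPM in pool 4, CCL20, which binds CCR6, from 119 to 248 CPM in pool 3 and from 101 to 296 CPM in pool 4, and CCL5 from 4.61 to 14.99 CPM in pool 3 and from 4.54 to 18.2 CPM in pool 4. CXCL1, CXCL2 and CXCL6 were not past the fold, at 0.40, 0.57 and -0.39. At the vehicle state shares CXCL8 was at 0.19 and CXCL3 at 0.26, while CXCL10 was at -1.93 and CXCL11 at -3.04. PPBP, which encodes a platelet chemokine and was looked at after its values were seen, went from 15.9 to 70.9 CPM in pool 3 and from 17.6 to 77.5 CPM in pool 4.

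The promoters of a chemokine that was lower and of one that was higher are shown because both are textbook interferon or NF-kB and AP-1 targets. The choice of these genes was made after their values were seen. The first run is the 250 bases before the RefSeq start of CXCL10 in GRCh38.p14, chr4:76023498-76023747, minus strand. The second holds the 200 bases of the CXCL8 promoter window that end just before the GENCODE gene, chr4:73740319-73740518, plus strand. Sequences are from RefSeq. Capitals mark matches to an interferon-stimulated response element core (GAAA, 2 further bases, then GAAA), to AP-1 (TGANTCA) and to the NF-kB motif, all searched on both strands, and no 2 matches overlap.
CXCL10: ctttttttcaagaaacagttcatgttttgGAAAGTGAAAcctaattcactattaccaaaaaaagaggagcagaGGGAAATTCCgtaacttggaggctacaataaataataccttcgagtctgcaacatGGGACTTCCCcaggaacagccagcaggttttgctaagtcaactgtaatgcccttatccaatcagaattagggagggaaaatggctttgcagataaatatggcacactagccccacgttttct
CXCL8: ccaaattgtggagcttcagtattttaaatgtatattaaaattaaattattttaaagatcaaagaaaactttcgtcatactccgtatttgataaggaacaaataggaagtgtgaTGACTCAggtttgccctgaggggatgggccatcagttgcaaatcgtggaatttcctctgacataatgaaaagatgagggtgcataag
In CXCL10 the interferon element lies 221 to 212 bases before the RefSeq start, and the NF-kB matches lie 177 to 168 and 122 to 113 bases before it. In CXCL8 the AP-1 match lies 137 to 131 bases before the RefSeq start, and no other match to the searched letters was found in this window. The NF-kB search asked for GGG at the start of the motif, so a near form such as tggaatttcc in the CXCL8 run was not marked. The lack of an NF-kB mark therefore does not mean that CXCL8 lacks such a site. Of 35114 RefSeq promoters of 250 bases, 3.02% held the interferon core, 6.57% the AP-1 letters and 5.21% the NF-kB motif. These matches are a description of the letters, and no binding was measured.

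Of 14 listed heat shock genes 5 were measured. Of these 5 genes 2 were higher, against 5.97% of all measured genes. The median log2 ratio was 0.76, and the log2 ratio of their summed UMIs was 0.36. HSPA1A and HSPA1B encode near-identical inducible HSP70 chaperones and may share reads. HSPA1A went from 304 to 546 CPM in pool 3 and from 292 to 496 CPM in pool 4. HSPA1B went from 127 to 217 CPM in pool 3 and from 123 to 206 CPM in pool 4. Their log2 ratios were 0.80 (95% counting interval 0.78 to 0.83) and 0.76 (95% counting interval 0.71 to 0.80). The median cell held 233 CPM of HSPA1A with vehicle and 411 CPM with JQ1, so the difference was seen at the middle of the cells. The cochaperone DNAJB1 was at 0.41 and HSPB1 at -0.064. ATF3, a stress-induced transcription factor, went from 34.2 to 54.7 CPM in pool 3 and from 29.7 to 56.7 CPM in pool 4 and GADD45B, a growth arrest gene, from 25.3 to 41.3 CPM in pool 3 and from 27.2 to 42.04 CPM in pool 4. HIST1H2BG and HIST1H2BJ were higher among 18 histone genes, at 0.92 and 0.78. FOS, FOSB and EGR1 were at 0.085, 0.30 and 0.071, and 1 of 18 AP-1 and immediate early genes was past the fold.

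Most luminal genes had somewhat lower values with JQ1 without reaching the fold. Of 16 measured 15 had ratios below 0, against 1196 of 2178 over all genes. The median was -0.33 against -0.041 over all genes, and 1 was lower and 1 higher. AGR2, a protein disulfide isomerase of secretory cells, was lower, from 71.1 to 43.6 CPM in pool 3 and from 75.6 to 35.3 CPM in pool 4, and was found in 28.7% of vehicle cells and 19.6% of JQ1 cells. CD24 was at -0.49, EHF, an epithelial ETS factor, at -0.48, KRT19 at -0.41 and GATA3 at -0.35. ALDH1A3, which makes retinoic acid, was higher, from 1.05 to 5.42 CPM in pool 3 and from 0.986 to 3.84 CPM in pool 4, and 61.4% of its JQ1 UMIs lay in cluster 9 cells. Among basal genes KRT15 was lower, from 198 to 108 CPM in pool 3 and from 221 to 113 CPM in pool 4, while KRT5, KRT14 and KRT17 were at -0.17, -0.092 and -0.15. Of 22 measured genes of the cornified envelope and keratinocyte differentiation 7 were higher and 1 lower, against 5.97% and 3.86% of all genes. The median of the 22 was 0.11. Among the 7 were SPRR2A, SPRR2D and SPRR2E, near-identical genes whose reads could have been split among them. Of 3794 JQ1 cells 15 held at least 10 UMIs of an SPRR2 gene or CRCT1. CASP14, a caspase of keratinocyte differentiation, was higher, at 1.41, as was KRT1, at 2.08, which was found in 1.06% of vehicle cells and 0.791% of JQ1 cells. Without the 1% of cells highest for it in each group, the log2 ratio of KRT1 was -1.09. IVL, which encodes involucrin, was at -0.23.

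Hypoxia and glycolysis genes were a broad list of small differences, with 18 of 20 above 0, against 982 of 2178 over all genes. Their median was 0.37. Of the 20 genes 2 were higher, against 5.97% of all genes. These were STC2 and ANGPTL4, at 1.47 and 1.19, each in under 5% of cells. NDRG1, a hypoxia-induced gene that most cells carried, went from 174 to 275 CPM in pool 3 and from 185 to 251 CPM in pool 4, PGK1, a glycolytic kinase, from 334 to 488 CPM in pool 3 and from 345 to 474 CPM in pool 4, and CA9 from 16.99 to 23.1 CPM in pool 3 and from 17.7 to 23.9 CPM in pool 4. VEGFA was at 0.36 and at 0.022 at the vehicle state shares. In antimicrobial and acute phase genes 5 of 18 were higher, against 5.97% of all genes. SAA1 and SAA2, near-identical acute phase proteins that may share reads, were at 0.95 and 1.05, CHI3L2 was at 1.77, CHI3L1 at 0.87 and MUC16 at 1.60.

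Proliferation genes and MYC showed little difference over all cells. No gene of 17 S phase and 28 G2/M genes was past the fold, and the medians were 0.11 and 0.12. MKI67 went from 142 to 129 CPM in pool 3 and from 135 to 139 CPM in pool 4, and CDK1 was at 0.11. MYC, the transcription factor often used to read out BET inhibition, went from 87.8 to 87.7 CPM in pool 3 and from 86.9 to 81.4 CPM in pool 4, with a log2 ratio of -0.048 (95% counting interval -0.10 to 0.0072). Of 23 interferon and antigen presentation genes 1 was higher, HLA-DRB1, from 33.7 to 71.7 CPM in pool 3 and from 39.4 to 66.1 CPM in pool 4, and the median was 0.00082. ISG15 went from 336 to 166 CPM in pool 3 and from 265 to 205 CPM in pool 4, and IFIT1 from 42.9 to 13.9 CPM in pool 3 and from 31.5 to 23.1 CPM in pool 4, so each was past 1.5-fold in pool 3 only. TGFB2, a ligand of the TGF-beta family, was higher, at 0.79, and HBEGF, a ligand of EGFR, at 0.95.

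The labels that the authors assigned with scPred, from the expression of the same cells, divide the cells into 4_2, cluster 9 (described as transitional in the cell line), cR (JQ1-resistant) and unassigned. By its name 4_2 is a part of the cluster that the study describes as stem cell-like and in embryonic diapause. State 4_2 held 130 of 2272 vehicle cells (5.72%) and 129 of 3794 JQ1 cells (3.40%), a difference of -2.32 percentage points (95% interval -3.50 to -1.21, by combining the Clopper-Pearson limits). Cluster 9 held 22 vehicle cells (0.968%) and 197 JQ1 cells (5.19%), a difference of 4.22 points (95% interval 3.38 to 5.06). The cR state held 962 vehicle cells (42.3%) and 1250 JQ1 cells (32.9%), a difference of -9.39 points (95% interval -11.9 to -6.85). Unassigned were 1158 vehicle cells (51.0%) and 2218 JQ1 cells (58.5%). So the shares of 4_2 and cR were lower with JQ1 and the share of cluster 9 higher, in both pools, by more than these counting intervals. The intervals take cells as independent draws, and both pools may hold cells of the same tumors. Differences between tumors and between treatments therefore cannot be told apart. Within 4_2 62 of 1092 measured genes were higher (5.68%) and 29 lower (2.66%), in cluster 9 94 of 939 (10.0%) and 51 (5.43%), in cR 60 of 1906 (3.15%) and 66 (3.46%), and in unassigned cells 78 of 2220 (3.51%) and 108 (4.86%). In cluster 9 74 of the 94 higher genes had under 20 vehicle UMIs, so values there rest on little. Of the 130 genes higher over all cells, 83 stayed past the fold in both pools at the vehicle state shares, and of the 84 lower genes 49. By the ratio over both pools alone these numbers were 104 and 67. The higher genes were past the fold in the same direction in 64 of 120 measured in unassigned cells, 26 of 71 in cR, 18 of 79 in cluster 9 and 16 of 41 in 4_2. The lower genes were so in 56 of 82, 29 of 66, 2 of 11 and 6 of 38. Between cR and unassigned cells 40 genes were past the fold in the same direction and 0 in opposite directions, of 1900 measured in both.

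Over all measured genes in 4_2 cells 5.68% were higher and 2.66% lower. Of 9 measured alarmins and S100 genes 3 were higher with JQ1 and 0 lower, with a median log2 ratio of 0.22. S100A8 went from 804 to 3517 CPM, S100A7 from 429 to 2276 CPM, and PTGS2 from 10.2 to 68.2 CPM, with a log2 ratio of 2.73 (95% counting interval 2.15 to 3.36). The pools differed for S100A7, with log2 ratios of 1.55 in pool 3 and 4.02 in pool 4. TCN1 was at 2.58 (1.01 in pool 3 and 3.64 in pool 4) and LOX, which crosslinks collagen, at 2.24. Of 10 measured S phase genes 4 were higher and all 10 were above 0, with a median of 0.79. The higher genes were TYMS (1.38), CLSPN (1.39), ATAD2 (1.36) and HELLS (1.64). The median of the list was 0.35 in pool 3 and 2.03 in pool 4, and that of 19 G2/M genes, of which 1 was higher, -0.045 and 2.55, so these values lie mainly in pool 4. Of 21 interferon and antigen presentation genes 6 were higher, with a median of 0.52 (0.33 in pool 3 and 0.79 in pool 4). IFIT1 was at 1.74 (95% counting interval 1.32 to 2.19) from 59 vehicle and 192 JQ1 UMIs, and IFIT2 and IFIT3 were at 1.73 and 1.74. VIM, the mesenchymal intermediate filament, was at 1.74, while COL6A1 was lower, at -0.84. Of 14 measured mesenchymal and extracellular matrix genes 2 were higher and 1 lower, with 7 above 0 and 7 below. Their median was 0.096 (0.88 in pool 3 and -0.41 in pool 4). The metallothionein MT2A was at 1.17. PLA2G2A and IGFBP6 were lower, at -1.62 and -1.25, and so were C6orf15 (-1.89), B4GALNT3 (-1.19) and LY6G6C (-1.14).

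Unassigned cells gave another picture for interferon genes, with 0 higher and 3 lower of 23, against 4.86% lower of all genes in that state. The median was -0.16, from -0.47 in pool 3 and -0.059 in pool 4. ISG15, IFIT1 and IFIT2 were at -0.996, -1.58 and -1.12. By pool ISG15 was at -1.42 and -0.59 and IFIT1 at -2.37 and -0.89 in pools 3 and 4, so these values lie mainly in pool 3. IFIT1 and IFIT2 thus were past the fold in opposite directions in 4_2 and unassigned cells, and no test of this difference was possible. CXCL11 went from 15.02 to 1.43 CPM and CXCL10 from 32.5 to 6.74 CPM in unassigned cells, which held 402 of the 405 vehicle UMIs of CXCL11 and 869 of the 909 of CXCL10. SPP1 was at -3.43 (95% counting interval -3.61 to -3.26), and S100A8 at 1.29 (95% counting interval 1.26 to 1.31). By pool S100A8 was at 1.88 in pool 3 and 0.62 in pool 4, so its interval does not cover the spread between pools. IRX1 and CGA were at 3.53 and 2.84, and FABP4 at 3.35.

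In cR cells NES went from 23.3 to 4.44 CPM, at -2.39 (95% counting interval -2.71 to -2.08), and ROS1, a receptor tyrosine kinase, from 23.2 to 7.63 CPM. HLA class II genes and their partner CD74 were higher, with HLA-DRB1 at 1.62, CD74 at 1.04 and HLA-DRA at 0.93. CXCL1 was lower, at -0.91 (95% counting interval -0.95 to -0.86), and so were CXCL3 (-0.68) and CXCL6 (-1.498), while CCL5 was higher, from 16 vehicle and 309 JQ1 UMIs. CXCL1 was past the fold the other way in 4_2 cells, at 1.5. HSPA1A was at 0.89 in cR cells and at 0.81 in unassigned cells. S100A8 and S100A9 were at -0.031 and -0.084 in cR cells. IRX1 (3.11), ADAMTS5 (3.05), LSAMP (3.14) and KRT1 (3.33) were among the highest ratios there. For KRT1 the pools differed, at 5.79 in pool 3 and 1.57 in pool 4.

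In cluster 9 cells the few vehicle cells limit every ratio. The ratios of 489 of 939 measured genes had the same sign in both pools there, against 1739 of 2178 over all cells. The pools thus agreed little in direction in this state. The keratins KRT5, KRT14, KRT6A, KRT6B and KRT16 were lower, at -2.58, -1.28, -1.23, -1.38 and -1.04. The laminin chains LAMA3 and LAMB3 were higher, LAMA3 from 4 vehicle and 649 JQ1 UMIs with a ratio of 3.92 (95% counting interval 2.55 to 5.80) and LAMB3 at 1.95. The pools differed for both, with LAMA3 at 2.74 and 5.31 and LAMB3 at 0.79 and 5.36 in pools 3 and 4. Of 13 cholesterol and fatty acid synthesis genes 5 were lower, against 5.43% of all genes in cluster 9, and all 13 were below 0. Their median was -0.78. S100A8 and S100A9 were at -0.20 and 0.00033 within cluster 9.

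**Figure D4:**
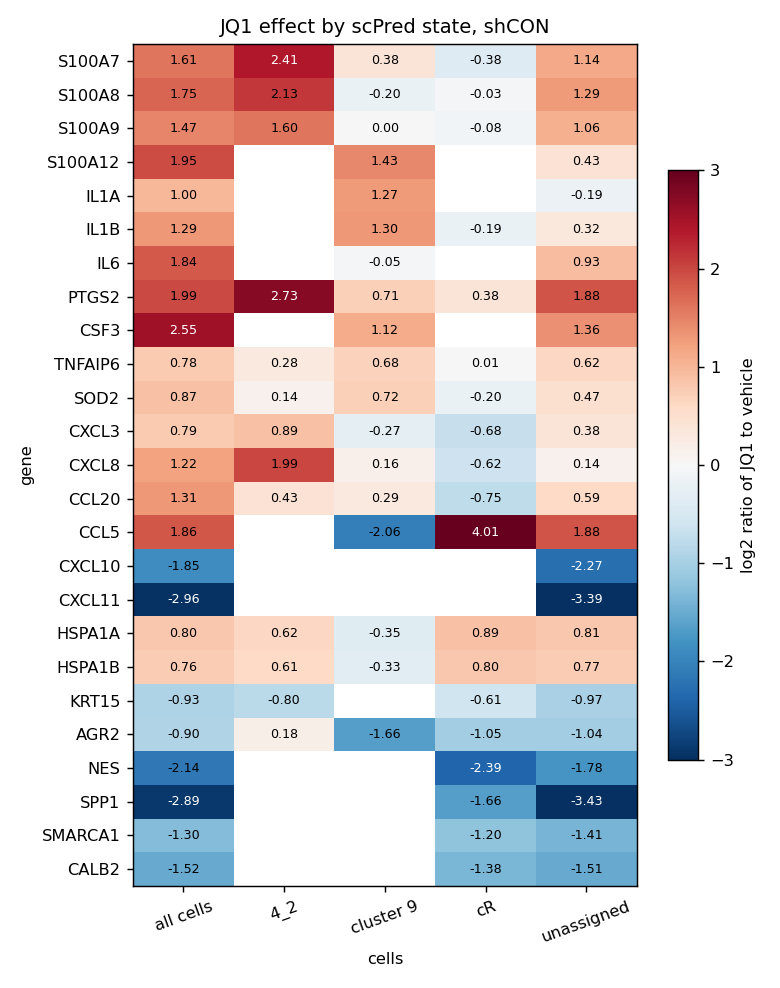
Log2 ratios of JQ1 to vehicle over all cells and within each scPred state for 25 genes, as colors with the value written in each field, which is empty where a gene had under 100 UMIs in the state. S100A8 is at 1.75 over all cells, 2.13 in 4_2, 1.29 in unassigned cells, -0.20 in cluster 9 and -0.031 in cR, and NES is at -2.39 in cR.

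In shCD9 tumors, pools 1 and 2, 48 of 2200 measured genes were higher and 91 lower by the same rule. Line and pool cannot be told apart, so the values are given side by side. Of the 130 genes higher in shCON tumors 93 were measured in shCD9 tumors, where 3 were past the fold in the same direction and 22 in the opposite one, with a median log2 ratio of -0.36. Of the 84 lower genes 80 were measured, 3 in the same direction and 7 in the opposite one, with a median of 0.15. S100A8 went from 1467 to 882 CPM in shCD9 tumors, CXCL8 from 124 to 65.4 CPM and IL1B from 54.7 to 31 CPM. In shCON tumors the vehicle level of S100A8 was lower than in shCD9 tumors, going from 587 to 1978 CPM over both pools. CXCL8 went from 51.1 to 119 CPM and IL1B from 15.1 to 36.98 CPM in shCON tumors. NES was at -0.89 in shCD9 tumors and SPP1 at -1.37, and HSPA1A was at -0.51.

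**Figure D5:**
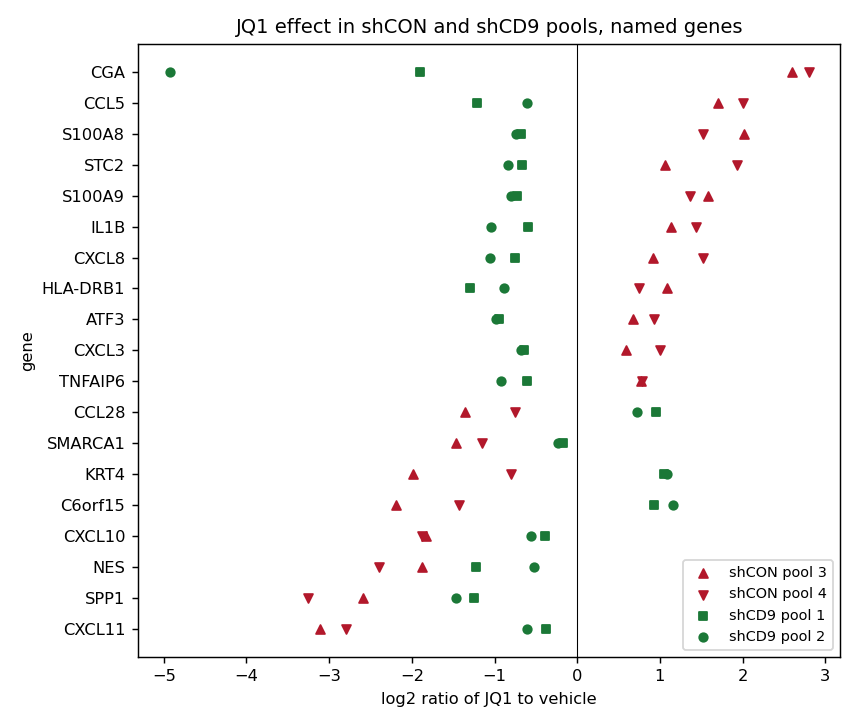
Log2 ratios of JQ1 to vehicle (horizontal axis) in each pool of shCON tumors (triangles) and shCD9 tumors (square and circle). Drawn are 14 genes picked because they were past 1.5-fold in opposite directions in shCON and shCD9 tumors, with SPP1, NES, CXCL10, CXCL11 and SMARCA1. The opposite signs of the 14 follow from that choice. Of all measured genes, 22 of 93 higher and 7 of 80 lower ones were opposite. S100A8 is at 2.01 in pool 3 and 1.52 in pool 4 and at -0.67 and -0.74 in pools 1 and 2, and NES at -1.88 in pool 3 and -2.40 in pool 4 and at -1.23 and -0.53.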

How the data were processed

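Per the labels and the methods, cells were captured with droplet 3' chemistry, pooled with hashtag antibodies and counted by the authors with Cell Ranger 6.0.0 on GRCh38, and cells of low quality and doublets were removed before deposit. The deposited values are a normalized signal: the authors divided each cell's UMI counts by the cell's total relative to a common total, and kept 4000 genes. UMIs were recovered from these values (100% whole within 0.05, common total 15070). The 4000 genes held 28.4% of all UMIs over the 13719 cells of all pools. In shCON cells they held 26.7% with vehicle and 26.9% with JQ1. How the 4000 genes were chosen is not known from the sources used here. UMIs were summed by treatment and pool, as all cells and within scPred states, and divided by all UMIs. Poisson, conditional binomial and Clopper-Pearson 95% intervals cover counting error only. UMIs within a state needed a minimum of 100. A count of 0 was set to 3, and no ratio was given when the other count was 3 or lower or the bound lay on the wrong side, which was set after the data were seen.

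The named genes were the 15 highest and 15 lowest ratios over all cells, the 5 highest and 5 lowest within a state, and members of 30 gene lists and 6 marker lists. The members and lists were chosen with earlier results of these data known. Promoter genes and the removal of cluster 9 cells were chosen after values were seen. Positions of 433 of 456 named genes are those of GRCh38 with GENCODE release 44. On simulated data of 2150 genes, 100% of genes raised 2- or 4-fold were called, 92% lowered to a ratio of 0.5 and 84% lowered to 0.25. The missed genes had fallen under 200 UMIs, so lowered genes near the minimum are lost while raised ones are not. The simulated sums were Poisson counts with the same level in both pools, without the large counts in few cells seen here. They therefore show what the minimum does, and not how reliable the calls are. No test across samples was run. Intervals were computed with scipy 1.17.1, tables with pandas 2.3.3 and numpy 2.4.6 in Python 3.11.15, and plots with matplotlib 3.10.9.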

Additional observations from a re-analysis of the deposited data

Results flagged for a closer look

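Of 72 genes checked, 14 were past 1.5-fold in opposite directions in both pools of shCON tumors and both pools of shCD9 tumors. All of the 72 but MYC had been picked as past the fold in shCON tumors. Of all genes past the fold there and measured in shCD9 tumors, 22 of 93 higher and 7 of 80 lower ones were opposite. In shCD9 tumors 48 of 2200 measured genes were higher and 91 lower. The difference between shCON and shCD9 tumors was not tested, since each treatment is 1 sample, and line and pool cannot be told apart. Higher in shCON and lower in shCD9 tumors were CGA (2.70 and -2.87 on the log2 scale), HLA-DRB1 (0.91 and -1.09), ATF3 (0.80 and -0.97), CCL5 (1.86 and -0.92), CXCL8 (1.22 and -0.92) and CXCL3 (0.79 and -0.68). The same held for IL1B (1.29 and -0.82), TNFAIP6 (0.78 and -0.79), S100A8 (1.75 and -0.73), S100A9 (1.47 and -0.78) and STC2 (1.47 and -0.76). Lower in shCON and higher in shCD9 tumors were C6orf15 (-1.83 and 1.05), KRT4 (-1.37 and 1.07) and CCL28 (-1.06 and 0.82). In shCD9 tumors the vehicle levels of CXCL8, IL1B and S100A8 were above those in shCON tumors.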

How the results depend on the processing

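No paired analysis was possible because the result comes from no test and no label numbers the vehicle and JQ1 tumors. The 130 higher and 84 lower genes became 0 and 0 with the mean of log2(value + 1), 2 and 20 with log2(value + 0.1), 245 and 236 with no minimum of UMIs, and 62 and 12 with a fold of 2. Weighted to the vehicle state shares within each pool, 85 were higher. Without cluster 9 cells 81 were higher, and 78 of the 130 and 69 of the 84 stayed past the fold. Lower genes numbered 135 without the 1% of cells highest for a gene, 141 from summed pools alone, and 163 to 167 without pool 3 or pool 4, where a fold in 1 pool sufficed.

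Within states, a minimum of 50 UMIs gave 99 higher and 57 lower genes in 4_2 and 78 lower in cluster 9. A fold of 2 gave 20 and 4 in 4_2, 37 and 15 in cluster 9, 23 and 13 in cR and 33 and 18 in unassigned cells. Leaving out a pool gave 147 to 179 and 129 to 150, 253 to 308 and 175 to 242, 120 to 135 and 135 to 140, and 142 to 174 and 236 to 250, in the same order.

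The log2 ratio of HP was -1.09 and the log2 ratio of SPRR2G -0.38 without cluster 9 cells, IL1A was -0.039 at the vehicle state shares, and the log2 ratio of KRT1 was -0.00057 with log2(value + 0.1) and -1.09 without the 1% of cells. That setting left no value for CRCT1, LAIR2, SPRR2G, SPRR2F and HP. Log2 ratios of the summed UMIs of a list were 0.60 for NF-kB targets, 0.45 for alarmins, 0.36 for heat shock genes and 0.56 for chemokines. At the vehicle state shares the medians over genes were 0.15 for NF-kB targets, 0.35 for alarmins, 0.069 for chemokines and 0.28 for hypoxia genes. With pool 3 or pool 4 left out they were 0.46 to 0.52 for NF-kB targets, 0.19 to 0.39 for antimicrobial genes, 0.14 to 0.29 for cornified envelope genes and 0.41 to 0.77 for heat shock genes. The share of cluster 9 differed by 4.22 points over all cells and by 10.5 points among assigned cells. The cause of these differences was not tested.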

Other observations

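Further genes past the fold, some of them secreted factors, were picked after their values were seen. All but GPX2, a member of the metallothionein, iron and redox list, lay outside the lists. The IL-20 family cytokines IL24, IL19 and IL20 were higher with JQ1, going from 0.639 to 2.58 CPM, 3.18 to 9.38 CPM and 1.098 to 2.91 CPM over both pools. MMP13, a collagenase, went from 0.459 to 2.3 CPM, FGF7, a growth factor of epithelial cells, from 2.02 to 5.88 CPM, and CYP24A1, the enzyme that inactivates vitamin D, from 1.598 to 7.84 CPM. Of the R-spondin receptors, LGR5 was higher, at 0.82 on the log2 scale, and LGR6 lower, at -0.97. FRZB, a secreted Wnt antagonist, was lower, at -1.004, TNFRSF11B, the RANKL decoy osteoprotegerin, at -0.93, and VTCN1, an immune checkpoint ligand, at -0.88. GPX2, an epithelial glutathione peroxidase, was at -1.02, and AHR, the aryl hydrocarbon receptor, at -0.66.

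The remaining lists had few genes past the fold. None of the 16 listed genes of BET proteins, P-TEFb and its inhibitors was among the 4000 genes, so that list could not be read. Serine protease inhibitors and cystatins had 1 higher of 21 (SERPINB4, 1.02, with 60.0% of JQ1 UMIs in cluster 9 cells), and their median log2 ratio was 0.14. Mesenchymal and extracellular matrix genes had 1 higher of 27 and a median of -0.0046, metallothionein, iron and redox genes 0 higher and 1 lower of 19 and 0.10, and EGFR ligands and feedback genes 1 higher of 11 and -0.077. BMP, TGF-beta and ID genes had 1 higher of 12 and a median of -0.30. Cell cycle inhibitors had 1 higher of 7 (-0.052), apoptosis regulators 1 of 5 (-0.044) and aldehyde dehydrogenases 1 of 4 (-0.0034). None was past the fold among 14 cholesterol and fatty acid genes (-0.011), 7 mitochondrially encoded transcripts (-0.065), 6 unfolded protein response genes (0.043), 5 ABC transporters (0.15), 4 nuclear long noncoding RNAs (0.11), 3 lysosome genes (0.22) and 3 genes of the MYC network (0.041), by this rule of size. The medians of the basal and histone lists were -0.12 and 0.10, and those of the antimicrobial and AP-1 lists 0.16 and 0.10.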
